A study of Mus musculus with 32 samples.

Results

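Hepatocytes clear bile acids and other organic anions from blood with carriers on the sinusoidal (blood-facing) membrane and pump them into bile with ATP-driven exporters on the canalicular membrane. A further pair of pumps on the blood-facing side returns bile acids and conjugates to the circulation, and is known for rising when bile flow is blocked. The 10 genes of this system described here, across the groups of a mouse liver study, were the uptake carriers Slc10a1 (NTCP, the sodium-dependent bile acid carrier), Slco1a1, Slco1a4 and Slco1b2 (organic anion transporting polypeptides) and Slc22a7 (OAT2, an organic anion carrier), the canalicular exporters Abcb11 (BSEP, the bile salt pump), Abcb4 (a phospholipid floppase) and Abcc2 (MRP2, an exporter of conjugates such as bilirubin glucuronides), and the basolateral exporters Abcc3 (MRP3) and Abcc4 (MRP4). The 10 genes were listed by mouse symbol and mapped to the Ensembl identifiers of the count table through GENCODE vM21. They are 10 of 52636 genes listed, and 9 of them are among the 15599 that passed the filter on low counts and were tested.

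Polyadenylated RNA was sequenced from the livers of 32 mice, 1 library per mouse, in 8 groups of 4. The groups cross knockout (KO) of Thrb, the gene for thyroid hormone receptor beta, or wild type (WT), with T3, the active thyroid hormone, or PBS, and with CCl4, a hepatotoxin that P450 enzymes activate, or oil. They were KO T3 CCl4, KO T3 oil, KO PBS CCl4, KO PBS oil, WT T3 CCl4, WT T3 oil, WT PBS CCl4 and WT PBS oil. Every group, controls included, was fed PTU/LID (propylthiouracil in low-iodine diet), which makes mice hypothyroid. A group on normal diet was not analysed here. CCl4 was given at 0.4 µl/g, 2 times a week for 4 weeks and 9 injections in all, T3 at 1 µg/ml in drinking water in the last of those weeks. Livers were collected 24 h after the final dose. Strain, age and the kind of Thrb allele are not given in the labels, and KO is written as the labels do. The series title names receptor action during the resolution of liver fibrosis.

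Libraries held 16985162 to 26118055 counts. WT PBS CCl4 replicate 2 and KO PBS CCl4 replicate 3 lay farthest from the means of their groups (85.31 and 77.86 in log2 CPM distance over the tested genes, against 32.08 to 68.67 for the other 30), and where leaving out either one changed the call of a transporter, the value without it is given. Thrb kept reads in every KO liver, at 15.9 to 42.6 CPM in KO and 10.7 to 66.4 CPM in WT livers. Its difference was called on T3 but not on PBS (adjusted p = 0.167 on oil and 0.6 on CCl4). On oil the sizes were alike, with KO over WT log2 fold changes of -0.72 ± 0.21 with PBS and -0.70 ± 0.21 with T3. The KO oil livers were below the WT oil livers without overlap in both. Gene-level counts cannot show whether an exon is missing. Dio1, a T3-induced deiodinase gene, measured 77.3 to 135 CPM in KO T3, 3.95 to 20.02 CPM in KO PBS, 844 to 1185 CPM in WT T3 and 0.295 to 1.001 CPM in WT PBS livers, so the 4 combinations of genotype and hormone did not overlap. The 4 Y-linked genes examined held 3 counts over all 32 libraries.

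The promoter sequences of Abcb11 and Slc10a1, the pair whose levels followed each other most closely, are shown with AGGTCA (searched on both strands; TGACCT on the printed strand) in capitals. This hexamer is the half-site that thyroid hormone, retinoid and bile acid receptors share. Windows run from 250 bases before to 50 bases after the start of transcription, 5′ to 3′ on the strand of the gene, from RefSeq on GRCm38.p6. Slc10a1 has 2 annotated starts, and the hexamer lies 87 bases before the inner one, whose window is the second shown. In Abcb11 it lies 56 bases before the start.
Abcb11, chr2:69342567-69342866, minus strand: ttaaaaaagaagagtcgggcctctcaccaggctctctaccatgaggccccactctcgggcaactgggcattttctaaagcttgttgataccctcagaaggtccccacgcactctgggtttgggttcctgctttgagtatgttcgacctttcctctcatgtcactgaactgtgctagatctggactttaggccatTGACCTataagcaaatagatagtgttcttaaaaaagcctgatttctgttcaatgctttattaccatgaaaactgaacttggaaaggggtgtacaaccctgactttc
Slc10a1 outer start, chr12:80968656-80968955, minus strand: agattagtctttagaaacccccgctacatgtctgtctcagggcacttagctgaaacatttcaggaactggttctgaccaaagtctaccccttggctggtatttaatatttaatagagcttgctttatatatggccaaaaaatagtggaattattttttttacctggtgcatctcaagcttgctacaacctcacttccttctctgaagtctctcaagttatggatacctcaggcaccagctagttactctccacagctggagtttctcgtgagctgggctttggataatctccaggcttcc
Slc10a1 inner start, chr12:80968030-80968329, minus strand: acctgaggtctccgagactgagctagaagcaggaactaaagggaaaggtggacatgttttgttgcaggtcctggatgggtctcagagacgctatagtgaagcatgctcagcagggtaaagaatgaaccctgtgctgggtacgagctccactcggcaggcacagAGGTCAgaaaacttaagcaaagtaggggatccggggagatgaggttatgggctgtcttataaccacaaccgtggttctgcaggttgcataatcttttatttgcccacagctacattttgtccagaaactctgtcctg
Windows were found for 8 of the 10 genes, 10 windows in all. The set of windows used here held none for Slc22a7 or Abcc3. AGGTCA was in 5 of the 10 windows (those of Abcb11, Abcc2, Slc10a1, Slco1a1 and Slco1b2) and in 16.3% of 32851 RefSeq windows of the same length. A match of letters is a description and no evidence of binding.

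Slco1a1 and Slco1a4 both lie on chromosome 6 and are close in sequence. Their coding sequences have 1742 of 2010 aligned bases in common (86.7%), with identical stretches of up to 132 bases, so reads could pass between them and both values are uncertain. Slco1b2 shared 60.3% with Slco1a1 and 59.6% with Slco1a4, in stretches of at most 13 bases. The first 60 coding bases show how the pair differ, with the 13 differing positions in capitals, from GENCODE vM21 transcripts.
Slco1a1, coding bases 1-60: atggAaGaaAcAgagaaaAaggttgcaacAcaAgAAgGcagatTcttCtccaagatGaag
Slco1a4, coding bases 1-60: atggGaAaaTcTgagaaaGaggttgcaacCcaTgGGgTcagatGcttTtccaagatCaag
Slco1a1 (ENSMUSG00000041698), which is known for its high level in male liver, was nearly absent. It held 64 counts over all 32 libraries, against 62284 for Slco1a4. No library held more than 11 counts of Slco1a1, and 11 libraries held 0, among them the 4 WT T3 oil livers. The gene failed the filter on low counts and was not tested. Its near absence stood beside that of the Y-linked genes given above, in all groups alike, and the cause was not tested.

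Levels can be compared between genes only per length, and are given here as CPM per kilobase of annotated exon. In WT PBS oil livers the order was Slco1b2 (228 ± 60.5), Slc10a1 (217 ± 50.6), Abcb11 (167 ± 9.63), Abcc2 (145 ± 12.5), Abcc3 (109.6 ± 30.8), Slco1a4 (29.6 ± 7.12), Abcb4 (19.8 ± 2.35), Abcc4 (17.2 ± 12.9), Slc22a7 (0.281 ± 0.188) and Slco1a1 (0.0302 ± 0.0177; mean ± SD, n = 4). In WT T3 oil livers Slc10a1 (288 ± 73.4), Slc22a7 (269.6 ± 62.2) and Abcb11 (266 ± 50.7) led, followed by Abcc2 (90.4 ± 3.795), Abcb4 (37.5 ± 4.78), Slco1b2 (36.4 ± 6.61), Slco1a4 (8.57 ± 3.17), Abcc3 (8.24 ± 1.43) and Abcc4 (7.12 ± 1.26). The first 3 in each of these groups lay within 1 SD of a neighbour. From the lowest to the highest of the 8 group means, CPM spanned 1072-fold for Slc22a7, 13.3-fold for Abcc3, 12.8-fold for Slco1a4, 6.86-fold for Slc10a1, 6.75-fold for Slco1b2, 6.55-fold for Abcb11 and 5.48-fold for Abcc4. Abcc2 (2.38-fold) and Abcb4 (2.35-fold) varied least.

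In the following, CPM are given by library in the order of replicates 1 to 4, and fold changes are log2 values ± SE from the edgeR quasi-likelihood fit with Benjamini-Hochberg adjusted p over all tested genes. T3 in WT oil livers raised 2 of the 9 tested genes (Slc22a7, Abcb4) and lowered 5 (Slco1a4, Slco1b2, Abcc2, Abcc3, Abcc4), against 19% of all genes higher and 16.2% lower (35.3% called). T3 in WT CCl4 livers raised 4 (Slc10a1, Slc22a7, Abcb11, Abcb4) and lowered 2 (Abcc3, Abcc4), against 20% and 21.7% of all genes (41.7% called). T3 in KO oil livers raised 1 and lowered 0 (10.6% and 8.11% of all genes, 18.7% called), and T3 in KO CCl4 livers raised 0 and lowered 1 (1.77% and 0.769%, 2.54% called). CCl4 raised 1 and lowered 5 in WT PBS livers (24.6% and 21.6% of all genes, 46.2% called). It raised 0 and lowered 4 in KO PBS livers (17.8% and 13.4%, 31.1% called). It raised 1 and lowered 0 in WT T3 livers (1.67% and 1.74%, 3.4% called), and raised 0 and lowered 6 in KO T3 livers (19.7% and 19.8%, 39.6% called). Against WT, 1 gene was higher in KO and 0 lower with PBS and oil (0.404% and 0.135% of all genes, 0.538% called), and 1 was higher and 0 lower with PBS and CCl4 (1.21% and 1.04%, 2.25% called). With T3 and oil 2 were higher and 1 lower (7.14% and 9.21%, 16.3% called), and with T3 and CCl4 1 was higher and 5 lower (10.4% and 12.5%, 22.9% called). The median log2 fold change of the 9 genes was -1.86 for CCl4 in KO T3 livers, against 0.00 over all tested genes, and 0.14 for CCl4 in WT T3 livers, against -0.01. Of these 12 comparisons, the members' share called was below that of all genes for T3 in KO oil livers and above it in the others. It rests on 1 gene of 9 for T3 in KO CCl4 livers, for CCl4 in WT T3 livers, and for KO against WT on PBS with either injection. In these, any 1 call would put the members' share above that of all genes. No test of the list was made.

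**Figure D1:**
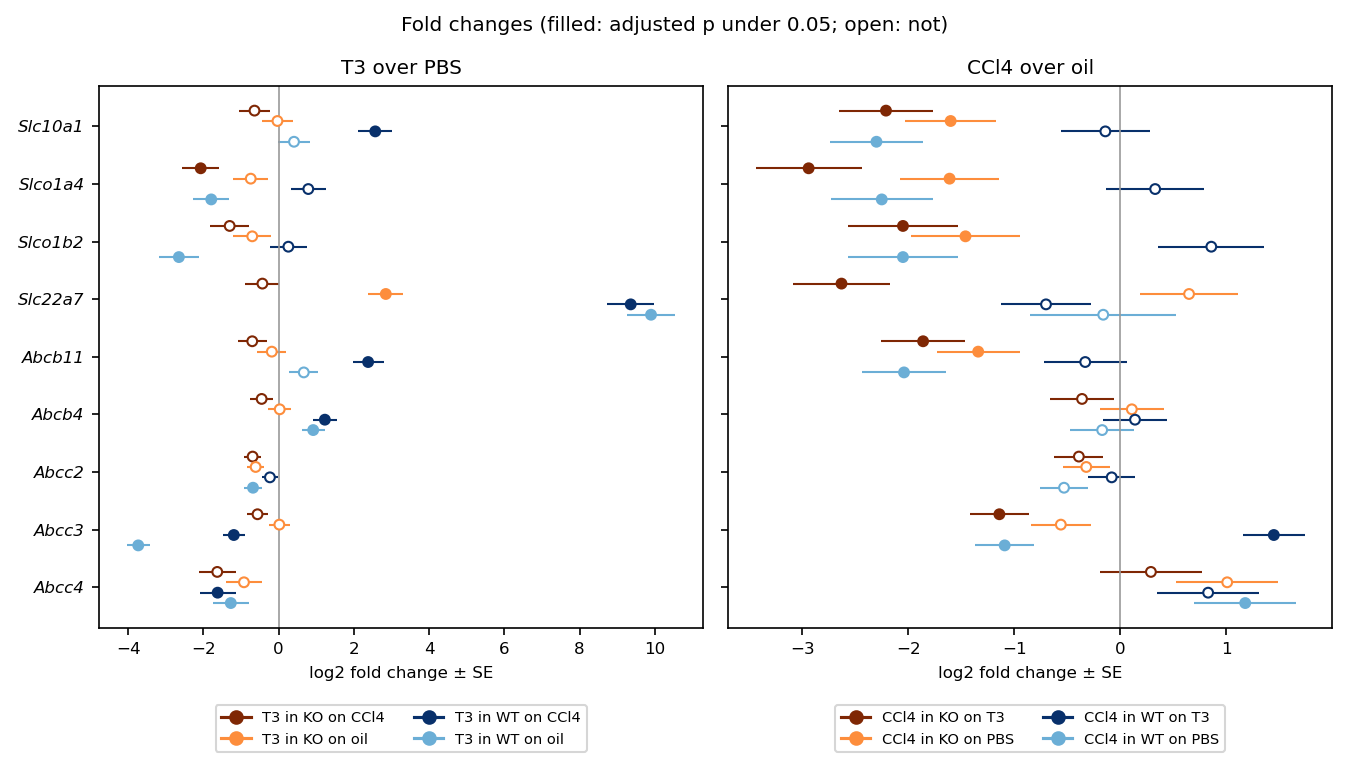
Log2 fold changes ± SE (horizontal axis) of the 9 tested transporter genes for T3 over PBS (left) and CCl4 over oil (right), 1 colour per pair of groups; filled points passed an adjusted p of 0.05. Slc22a7 lies near 10 for T3 in WT, and in the right panel Slc10a1, Slco1a4, Slco1b2 and Abcb11 are to the left of 0 for 3 of the 4 pairs and near or above 0 for CCl4 in WT on T3.

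Slc22a7 (ENSMUSG00000067144, chr17:46432183-46438457, minus strand), the organic anion carrier, showed the widest range. WT T3 oil livers held 588, 735, 518 and 425 CPM, against 0.731, 0.987, 0.589 and 0.0523 CPM in WT PBS oil livers. WT T3 CCl4 livers held 296, 284, 257 and 554 CPM, against 0.321, 0.165, 0.214 and 1.41 CPM in WT PBS CCl4 livers. All T3 livers were far above all PBS livers in WT, where the 8 PBS libraries had 1 to 35 counts each. The log2 fold change was 9.90 ± 0.65 on oil (adjusted p = 2.22e-12) and 9.36 ± 0.63 on CCl4 (adjusted p = 8.31e-12), sizes that depend on the few counts on PBS. In KO, T3 oil livers held 41.2, 20.1, 19.9 and 33.96 CPM, against 3.61, 2.96, 4.05 and 5.32 CPM in PBS oil livers, with no overlap (2.85 ± 0.47, adjusted p = 7.3e-05). KO T3 CCl4 livers held 4.14, 6.22, 3.22 and 5.06 CPM, against 4.26, 14.4, 3.06 and 3.57 CPM in KO PBS CCl4 livers. These overlapped and the difference was not called (-0.43 ± 0.45, adjusted p = 0.708). The T3 response was smaller in KO than in WT on oil (interaction -7.05 ± 0.73, adjusted p = 1.25e-07; of all genes 5.58% were called higher and 6.64% lower, 12.2% in all; of the members 1 and 1) and on CCl4 (-9.79 ± 0.75, adjusted p = 1.32e-09; of all genes 10.3% higher and 12.4% lower, 22.7% in all; of the members 0 and 5).

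The genotypes differed for Slc22a7 in opposite directions with and without hormone. On T3 it was lower in KO, with log2 fold changes of -4.30 ± 0.48 on oil (adjusted p = 2.08e-07) and -6.23 ± 0.53 on CCl4 (adjusted p = 1.78e-09). On PBS it was higher in KO, by 2.76 ± 0.58 on oil (adjusted p = 0.0147) and by 3.57 ± 0.56 on CCl4 (adjusted p = 0.00052). Every KO PBS liver was above every WT PBS liver of the same injection. The oil call was lost without KO PBS oil replicate 4 (adjusted p = 0.0569), WT PBS oil replicate 3 (0.067) or WT PBS oil replicate 4 (0.0679), and the CCl4 call when only the compared groups were fitted (0.403). In KO T3 livers CCl4 lowered Slc22a7 (-2.63 ± 0.46, adjusted p = 9.58e-05), and the T3 response differed between CCl4 and oil in KO (-3.28 ± 0.65, adjusted p = 0.00359; 1.15% of all genes higher and 2.56% lower, 3.71% in all; 0 and 1 members). In WT the corresponding difference was -0.55 ± 0.81 (adjusted p = 0.665).

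**Figure D2:**
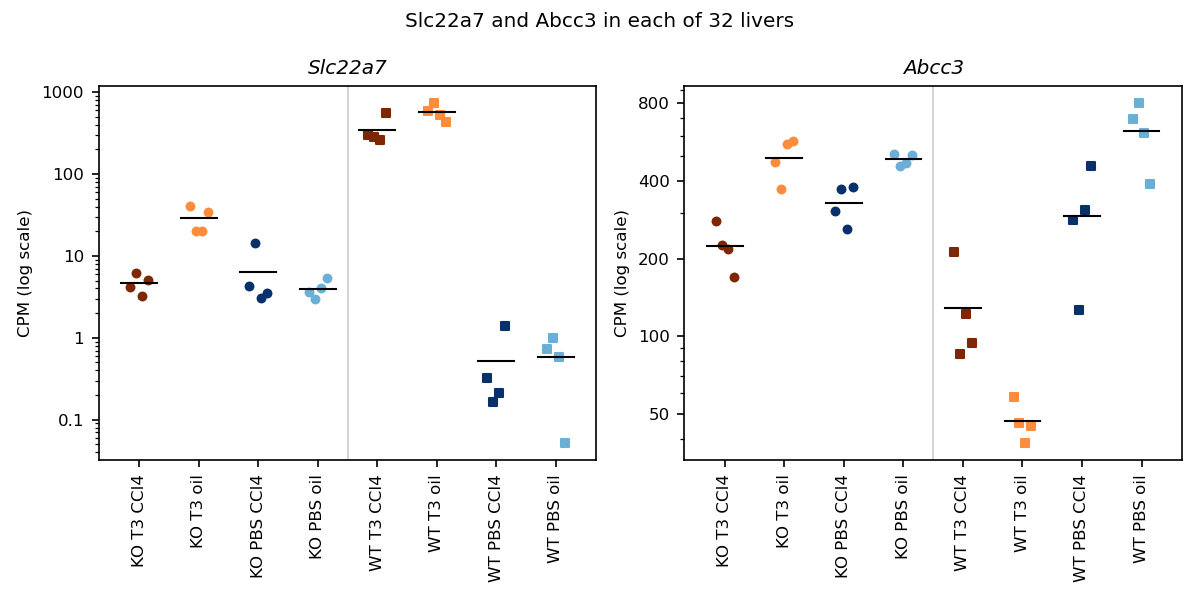
CPM on a log axis of Slc22a7 (left) and Abcc3 (right) in each liver by group, with circles for KO, squares for WT and a bar at each group mean. For Slc22a7 the 8 WT T3 livers lie at 257 CPM or more and the 8 WT PBS livers at 1.41 CPM or less; for Abcc3 the 4 WT T3 oil livers lie lowest, at 38.6 to 58.2 CPM.

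Slc10a1 (ENSMUSG00000021135, chr12:80953183-80968705, minus strand), the main bile acid uptake carrier, fell with CCl4 in every setting except WT on T3. WT PBS CCl4 livers held 79.4, 34.1, 46.2 and 228 CPM, against 551, 497, 549 and 315 CPM in WT PBS oil livers. All 4 injured livers were below all 4 oil livers (-2.30 ± 0.44, adjusted p = 0.000168). KO PBS CCl4 livers held 274, 244, 48.8 and 307 CPM, against 711, 672, 502 and 772 CPM in KO PBS oil livers (-1.60 ± 0.43, adjusted p = 0.00696). KO T3 CCl4 livers held 183, 144, 92.02 and 143 CPM, against 731, 540.3, 693 and 637 CPM in KO T3 oil livers (-2.21 ± 0.44, adjusted p = 0.000353). These groups did not overlap in either KO pair. WT T3 CCl4 livers held 473, 580.4, 657 and 585 CPM, within the range of WT T3 oil livers at 575, 749, 777 and 431 CPM (-0.14 ± 0.42, adjusted p = 0.938). Over all groups, the 12 libraries of the other 3 CCl4 groups lay at 34.1 to 307 CPM and the remaining 20 at 315 to 777 CPM. Bulk RNA cannot tell fewer cells of a type from less RNA per cell, here or below.

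T3 raised Slc10a1 in WT CCl4 livers, by 2.57 ± 0.45 in log2 (adjusted p = 4.84e-05), with no overlap with WT PBS CCl4 livers. The fold change for T3 in KO CCl4 livers was -0.64 ± 0.42 (adjusted p = 0.507), and the T3 response was lower in KO than in WT by -3.21 ± 0.61 (adjusted p = 0.000428). On oil the T3 response was not called in WT (0.41 ± 0.42, adjusted p = 0.489) or in KO (-0.03 ± 0.42, adjusted p = 0.976). On T3 and CCl4, KO livers were below WT livers without overlap (-2.03 ± 0.44, adjusted p = 0.00121). The effect of CCl4 on T3 differed between genotypes (-2.07 ± 0.60, adjusted p = 0.0235; 6.2% of all genes higher and 7.26% lower, 13.5% in all; 0 and 5 members), a call lost without KO T3 CCl4 replicate 3 (0.0573) or WT T3 oil replicate 4 (0.0551). On PBS and CCl4 the genotypes were not called apart (1.17 ± 0.43, adjusted p = 0.139), but were without WT PBS CCl4 replicate 4 (2.04, adjusted p = 0.0021) or KO PBS CCl4 replicate 3 (1.51, adjusted p = 0.0223).

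Abcb11 (ENSMUSG00000027048, chr2:69238282-69342616, minus strand), the bile salt pump, followed Slc10a1 closely. Pearson's r over the 8 group means of log2 CPM was 0.99, a description over means that share libraries and scaling. WT PBS CCl4 livers held 155, 54.3, 141 and 485 CPM, against 907, 887, 794 and 851 CPM in WT PBS oil livers, with no overlap (-2.04 ± 0.40, adjusted p = 0.000218). KO T3 CCl4 livers held 407, 279.9, 183 and 269.7 CPM, against 1226, 877, 996 and 1027 CPM in KO T3 oil livers, also with no overlap (-1.86 ± 0.40, adjusted p = 0.000717). KO PBS CCl4 livers held 448, 581, 182 and 634 CPM, against 1176, 905, 1518 and 1066 CPM in KO PBS oil livers (-1.34 ± 0.39, adjusted p = 0.0122; 0.0519 without KO PBS CCl4 replicate 3). WT T3 CCl4 livers held 1158, 897, 1010.3 and 1283 CPM, against 1434, 1538, 1523 and 984 CPM in WT T3 oil livers. These groups overlapped (-0.33 ± 0.39, adjusted p = 0.797). As for Slc10a1, the 12 libraries of the other 3 CCl4 groups (54.3 to 634 CPM) lay below the remaining 20 (794 to 1538 CPM).

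T3 raised Abcb11 in WT CCl4 livers (2.38 ± 0.41, adjusted p = 3.86e-05). In KO CCl4 livers the T3 value was negative and not called (-0.70 ± 0.39, adjusted p = 0.399). It was called lower when both libraries farthest from their group means were left out (-0.97, adjusted p = 0.0439). The response in KO was below that in WT (interaction -3.07 ± 0.56, adjusted p = 0.00026). In KO oil livers the T3 value was -0.18 ± 0.39 (adjusted p = 0.804). In WT the T3 response of Abcb11 was larger on CCl4 than on oil (1.71 ± 0.55, adjusted p = 0.0257), as was that of Slc10a1 (2.16 ± 0.60, adjusted p = 0.0116). This contrast was called higher in 5 members and lower in 0, against 10.8% and 13.1% of all genes (23.9% in all). For Abcc3, higher meant a smaller fall with T3 (-3.73 on oil, -1.19 on CCl4). For Slco1b2 and Slco1a4 it meant a fall called on oil (-2.65 and -1.79) and no change called on CCl4 (0.26 and 0.79). The Abcb11 call was lost without WT T3 oil replicate 4 (0.0596) and when only the compared groups were fitted (0.0572). On oil, WT T3 livers were above WT PBS livers without overlap, but the difference was not called (0.67 ± 0.39, adjusted p = 0.186; 0.00602 with only the compared groups). KO livers were below WT livers on T3 and CCl4 (-1.93 ± 0.40, adjusted p = 0.000825). The CCl4 effect on T3 was not called as different between genotypes (-1.52 ± 0.55, adjusted p = 0.062). It was called by DESeq2 (0.0363), with only the compared groups (0.00171) and without KO PBS CCl4 replicate 3 (0.0353), KO T3 CCl4 replicate 1 (0.0429), WT PBS CCl4 replicate 2 (0.0208) or WT PBS CCl4 replicate 4 (0.0153). On PBS and CCl4 the KO value was higher than the WT value but not called (1.14 ± 0.39, adjusted p = 0.115). It was called without KO PBS CCl4 replicate 3 (1.41, adjusted p = 0.031) or WT PBS CCl4 replicate 4 (1.98, adjusted p = 0.000818). Abcb11 overlaps the annotated antisense gene Gm13613 and the pseudogene Gm13614, and without a known strand setting their reads cannot be told apart.

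**Figure D3:**
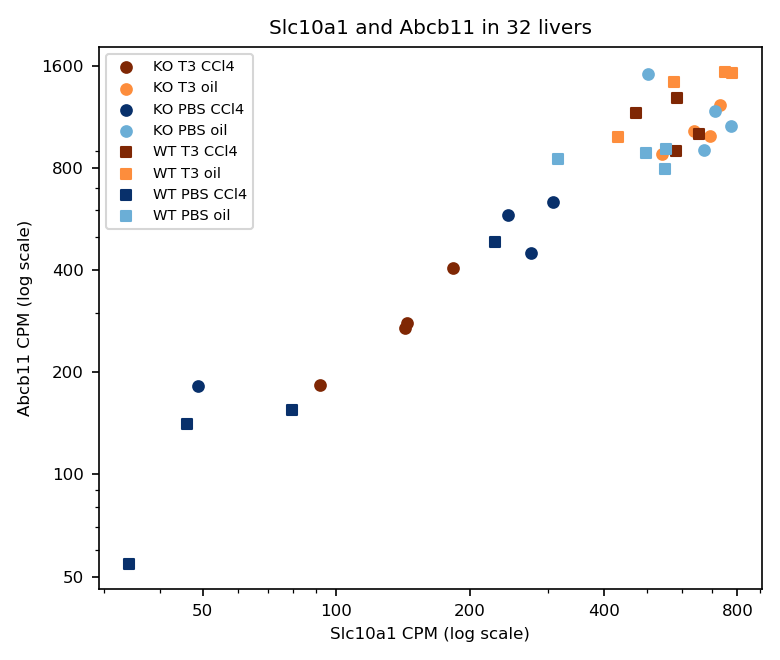
Slc10a1 CPM (horizontal, log scale) against Abcb11 CPM (vertical, log scale) in the 32 livers, with circles for KO, squares for WT and 1 colour per treatment. The 12 KO T3 CCl4, KO PBS CCl4 and WT PBS CCl4 livers lie at the lower left, and the WT T3 CCl4 livers lie among the oil livers.

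Slco1b2 (ENSMUSG00000030236, chr6:141629518-141686646, plus strand), the rodent counterpart of the human OATP1B uptake carriers, fell with T3 in uninjured WT livers and with CCl4 on PBS. WT T3 oil livers held 228, 163, 169.8 and 157 CPM, against 1147, 1300.1, 1356 and 698 CPM in WT PBS oil livers. The groups were far apart (-2.65 ± 0.53, adjusted p = 0.000247). KO T3 oil livers held 892, 529, 673 and 695 CPM, against 1045, 1186, 1292 and 1023 CPM in KO PBS oil livers. They did not overlap either, but the difference was not called (-0.70 ± 0.50, adjusted p = 0.362; called at 0.0109 with only the compared groups). The T3 response on oil was not called as different between genotypes (1.94 ± 0.71, adjusted p = 0.0741). The same test was called (at 0.018 without KO PBS CCl4 replicate 3, at 0.0457 without WT PBS CCl4 replicate 2, at 0.0474 without WT PBS CCl4 replicate 4 and at 0.000138 with only the compared groups). KO T3 oil livers were higher than WT T3 oil livers (1.96 ± 0.52, adjusted p = 0.00934). WT PBS CCl4 livers held 274, 87.7, 149.6 and 573 CPM, below all WT PBS oil livers (-2.05 ± 0.52, adjusted p = 0.00216). In KO on T3, CCl4 livers held 213, 131, 66.8 and 262 CPM, below all KO T3 oil livers (-2.05 ± 0.52, adjusted p = 0.00286). In KO PBS livers CCl4 gave 477, 587, 47.4 and 542 CPM (-1.46 ± 0.51, adjusted p = 0.0311), and this call was lost without KO PBS CCl4 replicate 3 (0.0749), KO PBS oil replicate 2 (0.0508) or KO PBS oil replicate 3 (0.0626).

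WT T3 CCl4 livers held 524, 234, 307 and 234 CPM of Slco1b2, all above the WT T3 oil livers but not called (0.86 ± 0.50, adjusted p = 0.477). In WT CCl4 livers no T3 change of Slco1b2 was called and the groups overlapped (0.26 ± 0.50, adjusted p = 0.703), unlike the fall on oil. The T3 response on CCl4 minus that on oil in WT was called (2.91 ± 0.72, adjusted p = 0.00546). The CCl4 effect on T3 was lower in KO than in WT (-2.91 ± 0.72, adjusted p = 0.00995). With T3 in KO CCl4 livers Slco1b2 gave -1.30 ± 0.51 (adjusted p = 0.184), called without KO PBS CCl4 replicate 3 (-1.67, adjusted p = 0.0233). The T3 response on CCl4 in KO minus that in WT was -1.56 ± 0.71 (adjusted p = 0.115), also called without that library (-1.93, adjusted p = 0.0121). Slco1a4 (ENSMUSG00000030237, chr6:141805440-141856199, minus strand), a carrier of bile acids and drugs, had a like profile (Pearson's r = 0.94 with Slco1b2 over the 8 group means, as a description). WT T3 oil livers held 80.1, 61.6, 44.9 and 33.4 CPM, against 143, 248, 167 and 201 CPM in WT PBS oil livers, without overlap (-1.79 ± 0.48, adjusted p = 0.00406). With CCl4, KO T3 livers held 29.7, 13.1, 10.6 and 11.4 CPM, against 153, 168, 54.04 and 123 CPM in KO T3 oil livers, also without overlap (-2.94 ± 0.50, adjusted p = 6.69e-05). CCl4 lowered it too in WT PBS (-2.25 ± 0.48, adjusted p = 0.000508) and KO PBS livers (-1.61 ± 0.47, adjusted p = 0.0121), the last lost without KO PBS CCl4 replicate 3 (0.0502). In WT T3 livers the change was 0.33 ± 0.46 (adjusted p = 0.843), and the CCl4 effect on T3 differed between genotypes (-3.27 ± 0.68, adjusted p = 0.00333). On oil the T3 response of Slco1a4 in KO was -0.74 ± 0.46 (adjusted p = 0.292), not called as different from WT (1.05 ± 0.66, adjusted p = 0.322). KO T3 oil over WT T3 oil livers gave 1.18 ± 0.47 (adjusted p = 0.0846). That was called with only the compared groups (0.0276) and without WT PBS CCl4 replicate 4 (0.0407).

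For Slco1a4 on CCl4 the T3 fold change was negative in KO and positive in WT. KO T3 CCl4 livers were below KO PBS CCl4 livers, which held 105, 79.9, 23.7 and 63.3 CPM. Replicate 1 of the first group overlapped replicate 3 of the second (-2.07 ± 0.49, adjusted p = 0.0183). That call was lost without KO PBS CCl4 replicate 1 (0.0741), KO T3 CCl4 replicate 2 (0.0718), 3 (0.0623) or 4 (0.0797), and with only the compared groups (0.0939). In WT the T3 effect on CCl4 was 0.79 ± 0.47 (adjusted p = 0.178), called only without WT PBS CCl4 replicate 4 (1.61, adjusted p = 0.00479). The difference of the responses between genotypes was called (-2.86 ± 0.67, adjusted p = 0.0028). On T3 and CCl4 every KO liver was below the WT livers, of which the WT T3 CCl4 group held 107, 48.3, 78.7 and 42.1 CPM (-2.09 ± 0.49, adjusted p = 0.00235).

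Of the canalicular exporters other than Abcb11, Abcb4 (ENSMUSG00000042476, chr5:8893717-8959231, plus strand), which moves phosphatidylcholine into bile, rose with T3 in WT. WT T3 CCl4 livers held 409, 424, 435 and 283 CPM, against 150.01, 68.2, 140.4 and 303 CPM in WT PBS CCl4 livers. Replicate 4 of each group crossed (1.23 ± 0.31, adjusted p = 0.00214). WT T3 oil livers held 324, 348, 319 and 416 CPM, against 154, 199.99, 187 and 201 CPM in WT PBS oil livers (0.92 ± 0.31, adjusted p = 0.0194). The oil groups did not overlap, and this call was lost without WT PBS oil replicate 1 (0.0575) or WT T3 oil replicate 4 (0.055). In KO the T3 response was 0.03 ± 0.30 on oil (adjusted p = 0.964) and -0.45 ± 0.30 on CCl4 (adjusted p = 0.519), and it was lower than in WT on CCl4 (interaction -1.68 ± 0.43, adjusted p = 0.00579; 0.053 with only the compared groups). On T3 and CCl4, KO livers at 294, 159.7, 147 and 182 CPM were lower than WT livers with 1 overlap (-0.99 ± 0.31, adjusted p = 0.0198), and the call was lost without any of KO T3 CCl4 replicates 2, 3 and 4 or WT T3 CCl4 replicate 3 (0.0506 to 0.076). On PBS and CCl4 the KO over WT value was 0.69 ± 0.31 (adjusted p = 0.23), called without KO PBS CCl4 replicate 3 (0.94, adjusted p = 0.0464) or WT PBS CCl4 replicate 4 (1.16, adjusted p = 0.0123). No CCl4 effect on Abcb4 was called, with fold changes of -0.36 to 0.14 and SE of 0.30. Abcb4 overlaps the pseudogene Gm17936.

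Abcc2 (ENSMUSG00000025194, chr19:43782192-43840740, plus strand) was lower in WT T3 oil livers, at 727, 803, 785 and 771 CPM, than in WT PBS oil livers, at 1089, 1240.2, 1343 and 1266 CPM. The groups did not overlap (-0.68 ± 0.23, adjusted p = 0.0198), and the call was lost without WT PBS oil replicate 3 (0.0516) or WT T3 oil replicate 1 (0.0512). The KO value was much the same in size, at -0.61 ± 0.23 (adjusted p = 0.0562; 0.0318 by DESeq2, 0.0247 without KO PBS CCl4 replicate 3 and 0.0139 without WT PBS CCl4 replicate 2), with an interaction of 0.07 ± 0.32 (adjusted p = 0.929). With T3 in KO CCl4 livers the value was -0.69 ± 0.23 (adjusted p = 0.104; 0.0151 without KO PBS CCl4 replicate 3 and 0.0275 without WT PBS CCl4 replicate 2). With edgeR on all 32 libraries no CCl4 or genotype comparison of Abcc2 was called, but several passed in other fits. In WT PBS livers CCl4 gave -0.53 ± 0.23 (adjusted p = 0.0553; 0.0401 by DESeq2, 0.0263 without KO PBS CCl4 replicate 3 and 0.0205 without WT PBS CCl4 replicate 4). On T3 and CCl4, KO livers were below WT livers without overlap (-0.49 ± 0.23, adjusted p = 0.115; 0.0425 without WT PBS CCl4 replicate 2).

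Of the basolateral exporters, Abcc3 (ENSMUSG00000020865, chr11:94343295-94392997, minus strand), which returns glucuronides and bile acids to blood, fell with T3 in WT livers. On oil the response differed between genotypes. WT T3 oil livers held 58.2, 46.2, 38.6 and 44.8 CPM, against 693, 803, 613 and 389 CPM in WT PBS oil livers. Every T3 liver was several-fold below every PBS liver (-3.73 ± 0.31, adjusted p = 3.27e-10). KO T3 oil livers held 472, 373, 557 and 569.6 CPM, against 507, 456, 470.3 and 506 CPM in KO PBS oil livers, which overlapped (0.02 ± 0.28, adjusted p = 0.971). The difference of the responses was 3.76 ± 0.41 (adjusted p = 2.86e-07), and KO T3 oil livers exceeded WT T3 oil livers by 3.39 ± 0.31 (adjusted p = 5.77e-09). In WT livers injured with CCl4 the fall with T3 was smaller, to 213, 84.97, 122 and 94.3 CPM in WT T3 CCl4 livers, against 282, 126, 308 and 457 CPM in WT PBS CCl4 livers. These overlapped (-1.19 ± 0.29, adjusted p = 0.00148; 0.0528 with only the compared groups). With T3 in KO CCl4 livers the value was -0.56 ± 0.28 (adjusted p = 0.338), and on CCl4 the responses of the genotypes were not called apart (0.63 ± 0.40, adjusted p = 0.267).

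CCl4 moved Abcc3 in opposite directions on PBS and on T3 in WT. It lowered it in WT PBS livers (-1.09 ± 0.28, adjusted p = 0.00278; 0.0517 with only the compared groups) and raised it in WT T3 livers, without overlap (1.45 ± 0.29, adjusted p = 0.00248). The difference was called (T3 response on CCl4 over that on oil, 2.54 ± 0.40, adjusted p = 0.000131). CCl4-treated KO T3 livers, at 281, 226, 218 and 169 CPM, were below KO T3 oil livers (-1.14 ± 0.28, adjusted p = 0.00252), and the CCl4 effect on T3 differed between genotypes (-2.60 ± 0.41, adjusted p = 0.000375). KO PBS CCl4 livers held 307, 373, 260.3 and 378 CPM, below all KO PBS oil livers but not called (-0.56 ± 0.28, adjusted p = 0.132). On T3 and CCl4, KO livers were higher than WT livers by 0.80 ± 0.28 (adjusted p = 0.0415), a call lost in many of the fits that left out 1 library (adjusted p up to 0.151).

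Abcc4 (ENSMUSG00000032849, chr14:118482692-118706219, minus strand), the pump known for rising in cholestasis, varied between mice of the same group. WT PBS CCl4 livers held 304, 109.7, 132 and 452 CPM, against 44.04, 49.4, 126 and 219.8 CPM in WT PBS oil livers. These groups overlapped (1.18 ± 0.48, adjusted p = 0.044). This call was lost without any 1 of 5 libraries: WT PBS CCl4 replicates 1 and 4 and WT PBS oil replicates 1, 2 and 3 (0.0637 to 0.217). WT T3 CCl4 livers held 99.9, 77.2, 80.3 and 66.1 CPM, all below the WT PBS CCl4 livers (-1.62 ± 0.48, adjusted p = 0.00837). WT T3 oil livers held 50.9, 42.4, 53.1 and 35.6 CPM and were called lower than WT PBS oil livers (-1.27 ± 0.48, adjusted p = 0.04), which did not hold without either of WT PBS oil replicates 3 and 4 or any single WT T3 oil library (adjusted p up to 0.294). KO T3 CCl4 livers held 50.2, 50.7, 78.4 and 52.9 CPM, against 261, 202, 44.7 and 213 CPM in KO PBS CCl4 livers, an uncalled difference of like size (-1.63 ± 0.49, adjusted p = 0.0662) that was called without KO PBS CCl4 replicate 3 (-1.95, adjusted p = 0.0143), WT PBS CCl4 replicate 2 (0.0437), WT PBS CCl4 replicate 4 (0.0483) or WT PBS oil replicate 4 (0.0476), and by DESeq2 (0.017). CCl4 in KO PBS livers gave 1.01 ± 0.48 (adjusted p = 0.108), called without KO PBS CCl4 replicate 3 (1.32, adjusted p = 0.0384). The KO and WT responses to T3 on CCl4 did not differ by test (-0.01 ± 0.67, adjusted p = 0.994), with an SE too wide to show that they act alike.

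**Figure D4:**
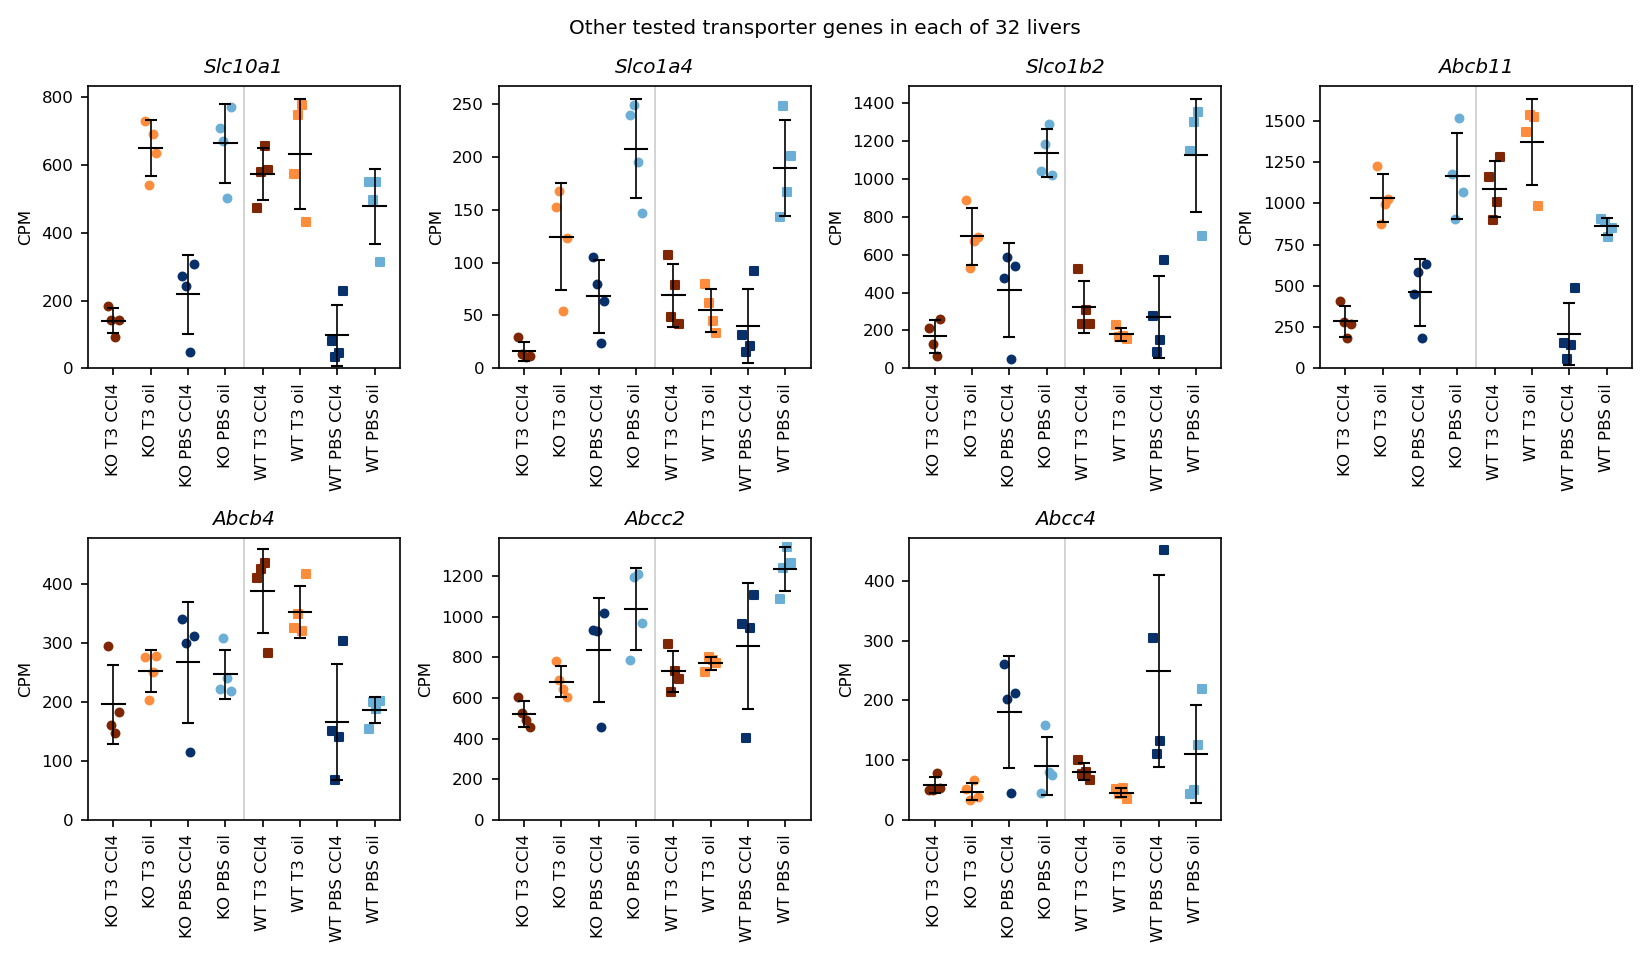
CPM of the other 7 tested transporter genes in each liver by group, with circles for KO, squares for WT and the mean ± SD (n = 4) as bars. Slc10a1 and Abcb11 are low in the KO T3 CCl4, KO PBS CCl4 and WT PBS CCl4 livers, and Slco1a4 and Slco1b2 are low in those and in both WT T3 groups.

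In none of the 9 genes was the CCl4 effect on PBS called as different between genotypes (differences of -0.18 to 0.81). Over all genes only 3 were called by edgeR (0.0192%) and 4 by DESeq2, while 1242 had an unadjusted p under 0.05.

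The other transport genes and regulators were counted in the same comparisons from fixed lists. With T3 in WT oil livers, 5 of 11 tested other sinusoidal transporter genes were higher and 2 lower, and 2 of 9 other canalicular genes were higher and 2 lower, against 19% of all genes higher and 16.2% lower. Those higher included Slc10a2 (1.57 ± 0.34, adjusted p = 0.000494), a bile acid carrier counted in the sinusoidal list although known from ileum and bile ducts. Abcg5 and Abcg8, the 2 parts of the sterol exporter, were higher too (1.59 ± 0.32 and 1.55 ± 0.37, adjusted p = 0.000271 and 0.00148). Slco2a1, a prostaglandin carrier, was lower (-1.89 ± 0.20, adjusted p = 2.83e-08), as was Atp8b1, a canalicular lipid flippase (-1.21 ± 0.19, adjusted p = 9.95e-06). Of 12 regulators, 1 was higher (Esr1, the oestrogen receptor, 2.06 ± 0.32, adjusted p = 1.04e-05) and 5 lower, among them Nr5a2 (-1.11 ± 0.18, adjusted p = 1.28e-05), Nr1h4, the bile acid receptor FXR (-0.94 ± 0.24, adjusted p = 0.00294), and Nr1i3, the xenobiotic receptor CAR (-2.10 ± 0.59, adjusted p = 0.00623). Of 6 CAR and PXR target genes, 3 were lower (Gsta1 at -2.93 ± 0.37, Cyp3a11 at -3.90 ± 0.61 and Cyp2b10 at -1.55 ± 0.46, adjusted p = 3.02e-07, 9.02e-06 and 0.01).

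With T3 in WT CCl4 livers, 4 of 9 other canalicular genes were higher and 0 lower, against 20% and 21.7% of all genes, including Abcg5 (2.82 ± 0.34, adjusted p = 2.08e-07) and Abcg8 (2.83 ± 0.39, adjusted p = 1.73e-06). Among the sinusoidal genes 6 of 11 were higher and 2 lower, with Slc51b, a subunit of the basolateral bile acid exporter, at 3.73 ± 0.60 (adjusted p = 1.8e-05) and Slco2a1 at -1.94 ± 0.20 (adjusted p = 2.55e-08). Of 12 regulators 3 were higher and 0 lower: Esr1 (2.91 ± 0.34, adjusted p = 1.21e-07), Rxra, the partner of many nuclear receptors (1.04 ± 0.20, adjusted p = 0.000182), and Hnf4a (0.80 ± 0.25, adjusted p = 0.0108). In KO compared with WT on T3 and CCl4, 3 of 9 canalicular genes were lower and 1 higher, against 12.5% of all genes lower and 10.4% higher, with Abcg5 at -1.62 ± 0.32 (adjusted p = 0.000541) and Atp8b1 at 0.89 ± 0.19 (adjusted p = 0.00104), and Slc51b was -3.37 ± 0.59 (adjusted p = 0.000151).

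With CCl4 in WT PBS livers, 7 of 9 other canalicular genes were lower and 0 higher, against 21.6% of all genes lower and 24.6% higher, with Slc47a1, the cation exporter MATE1, at -2.04 ± 0.30 (adjusted p = 7.06e-06) and Aqp8, a water channel, at -2.47 ± 0.54 (adjusted p = 0.000555). Of 12 regulators 9 were lower and 0 higher, with Nr5a2 at -0.96 ± 0.18 (adjusted p = 0.000106) and Nr1h4 at -1.05 ± 0.24 (adjusted p = 0.000941). Of the 11 sinusoidal genes 3 were higher, including Abcc1, a basolateral multidrug exporter (1.21 ± 0.23, adjusted p = 0.000132), and 4 lower, including Slc22a3, an organic cation carrier (-6.03 ± 0.77, adjusted p = 1.38e-06), and Slco2b1 (-1.77 ± 0.23, adjusted p = 2.13e-06). Of 7 NRF2 target genes 5 were higher and 1 lower, led by the cystine carrier Slc7a11 (7.97 ± 0.74, adjusted p = 2.82e-08) and Hmox1 (2.13 ± 0.22, adjusted p = 1.1e-07). In WT T3 livers CCl4 changed 0 of 9 canalicular genes, 0 of 12 regulators and 1 of 11 sinusoidal genes, where 3.4% of all genes were called.

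Cell type markers moved with several of these results, and their part in them was not tested. Beside the marker counts below, the shares of all genes called higher and lower were 24.6% and 21.6% for CCl4 in WT PBS livers. They were 17.8% and 13.4% for CCl4 in KO PBS livers, and 19.7% and 19.8% for CCl4 in KO T3 livers. For T3 they were 19% and 16.2% in WT oil livers, and 20% and 21.7% in WT CCl4 livers. The summed level of 8 hepatocyte genes was 57629.8 to 74943 CPM in WT PBS CCl4 livers, against 123290.4 to 174750.1 CPM in WT PBS oil livers, with 5 of 8 lower and 0 higher. It was 96192 to 133569.5 CPM in WT T3 CCl4 and 94379 to 123791 CPM in WT T3 oil livers, which overlapped. In KO T3 livers it was 109626 to 142179 CPM with CCl4, against 139102 to 180312 CPM with oil, with 2 of 8 higher and 1 lower, near the shares of all genes. The 7 pericentral hepatocyte genes summed to 295 to 738 CPM in KO T3 CCl4 livers, against 5083 to 6494 CPM in KO T3 oil livers (6 of 7 lower), and to 674 to 2245 CPM in WT PBS CCl4 livers, against 4210.3 to 12416 CPM in WT PBS oil livers (4 lower). In WT T3 livers the pericentral sum was 1571 to 2126 CPM with CCl4, against 2184 to 3111 CPM with oil, without overlap. There 0 of 7 were called, where 3.4% of all genes were. The 7 periportal genes summed to 2921 to 5397 CPM in KO T3 CCl4 livers, against 6452 to 8654 CPM in KO T3 oil livers (3 of 7 lower), and to 2200.5 to 6121 CPM in WT PBS CCl4 livers, against 10377 to 11290.3 CPM in WT PBS oil livers (6 lower). In KO PBS livers the hepatocyte sum was 61032 to 125752 CPM with CCl4, against 137541 to 153178 CPM with oil (2 of 8 lower). The pericentral sum was 248 to 1112 CPM with CCl4, against 5535 to 6473 CPM with oil (4 of 7 lower). The periportal sum was 3583 to 9142 CPM with CCl4, against 10474 to 13122 CPM with oil (5 of 7 lower). Beside the higher Slc10a1, Abcb11 and Abcb4 of WT T3 CCl4 livers over WT PBS CCl4 livers, 5 of 8 hepatocyte genes were higher, and the periportal sum was 9114 to 12800.5 CPM, against 2200.5 to 6121 CPM (6 of 7 higher). The pericentral sums of these groups overlapped, at 1571 to 2126 CPM against 674 to 2245 CPM (5 of 7 higher, 1 lower). In the same comparison the 8 cholangiocyte genes summed to 86.9 to 181 CPM, against 150.2 to 372 CPM (6 lower, 1 higher). The 5 neutrophil genes summed to 8.11 to 10.6 CPM, against 16.8 to 283 CPM (3 of 3 tested lower). With T3 in WT oil livers the 8 macrophage genes summed to 537 to 920.3 CPM, against 91.5 to 165 CPM on PBS (7 of 8 higher), and 5 proliferation genes to 78.4 to 199 CPM, against 4.22 to 8.04 CPM (5 of 5 higher). Both lists rose in KO oil livers too, where 10.6% of all genes were higher and 8.11% lower. There the macrophage sum was 424 to 628 CPM, against 90.8 to 139 CPM on PBS (7 of 8 higher). The proliferation sum was 24.5 to 82.3 CPM, against 4.79 to 8.94 CPM (5 of 5 higher). The pericentral sum was 2184 to 3111 CPM in WT T3 oil livers, against 4210.3 to 12416 CPM in WT PBS oil livers, without overlap (3 of 7 higher, 2 lower). The 4 kidney tubule genes summed to at most 2.004 CPM in any library, with Slc12a1 at 0 in all 8 groups, so the markers of kidney, where Slc22a7 is also expressed, were at or near 0.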

How the data were processed

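The authors deposited 1 table of whole-number read counts per gene for 32 mouse liver libraries. Reads were handled with STAR 2.7.9a on GRCm38, cutadapt, Trim Galore and FastQC 0.11.5, per the submitters' processing notes. Which program counted the reads, with what strand setting and annotation, is not given in the sources used here. Per the labels' protocols, libraries were made with either of 2 TruSeq kits, 1 of them stranded, without saying which library had which. Counting error falls with depth, and totals were 16985162 to 26118055 counts per library.

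Groups came from the labels, and each library has its own animal number, so replicates are separate mice. Symbols were matched to GENCODE vM21 (52489 of 52636 identifiers). Counts were fitted over all 8 groups with edgeR 4.0.16 (R 4.3.3, limma 3.58.1; TMM scaling, filterByExpr with a minimum count of 10 and total of 15, quasi-likelihood test). P-values were Benjamini-Hochberg adjusted over all 15599 tested genes in each of 18 comparisons, 12 between pairs of groups and 6 interactions, and called at 0.05. SE was the log2 fold change divided by the square root of F. CPM used TMM-scaled totals. Alternatives were DESeq2 1.42.0, other scaling, no filter, only the compared groups, a replicate block and leaving out libraries.

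All 10 transporters are reported, with Thrb and Dio1 as checks of the labels. From each related list up to 4 called genes with the smallest adjusted p could be named, and for each transporter the 2 genes with the highest correlation over group means. The transporters and lists were chosen with earlier results of these data known. Replicate numbers did not pair samples: the median correlation of deviations was -0.00933 over 112 same-number pairs and 0.00368 over 336 others. A result from the related lists is not reported here.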

Additional observations from a re-analysis of the deposited data

Results flagged for a closer look

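In 7 of 72 combinations of gene and group, 1 liver stood apart from the other 3 of its group by Dixon's test, which chance does in about 1 in 20 groups. They were Slco1a4 in KO T3 CCl4 replicate 1 (29.7 CPM), Slc22a7 in KO PBS CCl4 replicate 2 (14.4 CPM), WT T3 CCl4 replicate 4 (554 CPM) and WT PBS CCl4 replicate 4 (1.41 CPM), Abcb4 in WT T3 CCl4 replicate 4 (283 CPM), Abcc2 in KO PBS CCl4 replicate 3 (456 CPM) and Abcc4 in KO T3 CCl4 replicate 3 (78.4 CPM).

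Responses differed between groups by a tested interaction in 18 cases. The T3 response in KO minus that in WT on oil was -7.05 for Slc22a7 and 3.76 for Abcc3. The same difference on CCl4 was -9.79 for Slc22a7, -3.21 for Slc10a1, -3.07 for Abcb11, -2.86 for Slco1a4 and -1.68 for Abcb4. The CCl4 effect on T3 in KO minus that in WT was -3.27 for Slco1a4, -2.91 for Slco1b2, -2.60 for Abcc3, -2.07 for Slc10a1 and -1.93 for Slc22a7. The T3 response on CCl4 minus that on oil in WT was 2.91 for Slco1b2, 2.57 for Slco1a4, 2.54 for Abcc3, 2.16 for Slc10a1 and 1.71 for Abcb11, and in KO it was -3.28 for Slc22a7. Of all genes, 12.2%, 22.7%, 13.5%, 23.9% and 3.71% were called in these contrasts, in the order given. The Slc22a7 difference of -1.93 was lost by DESeq2 (adjusted p = 0.0568) and in 9 of the fits without 1 library. Also lost in some fits were Slc10a1 at -2.07 (adjusted p up to 0.0573), Abcb11 at 1.71 (up to 0.0596) and Abcb4 at -1.68 (0.053 with only the compared groups).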

How the results depend on the processing

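No member's fold change reversed under any alternative among called results. The number of members called moved by over 1.5 times as follows. With DESeq2 it was 2 for T3 in KO on oil and 2 for T3 in KO on CCl4, against 1 in each. With only the compared groups fitted it was 3 for T3 in KO on oil, 0 for T3 in KO on CCl4, 2 for CCl4 in WT on T3, 5 for KO on T3 and oil, 0 for KO on PBS and CCl4, and 5 for the T3 by genotype interaction on oil, against 1, 1, 1, 3, 1 and 2. Leaving out WT PBS CCl4 replicate 2 and KO PBS CCl4 replicate 3 together, chosen after seeing the data, gave 2 for T3 in KO on oil, 5 for T3 in KO on CCl4 and 4 for the T3 by genotype interaction on oil. Leaving out 1 library at a time gave 1 to 2 for T3 in KO on oil, 0 to 4 for T3 in KO on CCl4, 2 to 4 for CCl4 in KO on PBS, 0 to 1 for KO on PBS and oil, 1 to 5 for KO on PBS and CCl4, and 3 to 6 for the CCl4 by genotype interaction on T3. Of 162 member results, leaving out both libraries gained 15 calls and lost 0. The replicate block lost the Abcc4 calls for T3 in WT on oil (-1.19, adjusted p = 0.0701) and CCl4 in WT on PBS (1.19, adjusted p = 0.0545) and changed no other member call; replicate numbers share nothing but a number. The cause of these changes was not tested.

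Over all genes, 396 were called for T3 in KO on CCl4, against 681 by DESeq2, 86 with only the compared groups and 1149 without both libraries. For KO on PBS and CCl4 351 were called, against 731 by DESeq2, 3 with only the compared groups, 205 without the filter and 209 without both libraries. For KO on PBS and oil 84 were called, against 144 by DESeq2 and 160 without both libraries. For T3 in KO on oil 2923 were called, against 3286 by DESeq2, 2836 with only the compared groups and 3869 without both libraries. For KO on T3 and oil 2549 were called, against 2743 with only the compared groups. For T3 by genotype on oil 1906 were called, against 2698 with only the compared groups and 2760 without both libraries. With only the compared groups, counts were 818 against 531 (CCl4 in WT on T3), 4143 against 6506 (T3 in WT on CCl4), 4504 against 7202 (CCl4 in WT on PBS), 2300 against 3538 (T3 by genotype on CCl4) and 3489 against 2099 (CCl4 by genotype on T3). Without both libraries they were 3545 against 2099 (CCl4 by genotype on T3) and 1232 against 578 (T3 by CCl4 in KO). Total-count scaling gave 6004 against 3722 for T3 by CCl4 in WT. It also moved the median of all genes to -0.42 for T3 in WT on CCl4 and to 0.43 for CCl4 in WT on PBS, with 20.3% and 81.8% of calls higher, against 47.9% and 53.2% with TMM. The share of calls that were higher also moved by over 10 percentage points for T3 in WT on oil (67.1% against 54%), T3 in KO on oil (70.6% against 56.7%), T3 in KO on CCl4 (44.2% against 69.7%), CCl4 in KO on PBS (86.3% against 57.1%), CCl4 in WT on T3 (24.4% against 49%), CCl4 in KO on T3 (64.3% against 49.9%), KO on T3 and oil (29.2% against 43.7%), KO on PBS and CCl4 (30.1% against 53.8%) and KO on T3 and CCl4 (61.1% against 45.5%). For interactions it moved for T3 by genotype on CCl4 (67.8% against 45.3%), CCl4 by genotype on T3 (73.2% against 46.1%), T3 by CCl4 in WT (10.3% against 45.2%) and T3 by CCl4 in KO (11.2% against 31%). Under it 1 member call was lost (Abcc4 for T3 in WT on oil, -1.20, adjusted p = 0.052) and 2 were gained (Abcc2 for T3 in WT on CCl4, -0.59, adjusted p = 0.022; Abcc4 for CCl4 in KO on PBS, 1.23, adjusted p = 0.0383).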

Other observations

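Over the 8 group means of log2 CPM, the genes whose profile was most like each transporter among 11086 genes were found by Pearson's r, given as a description, since the means share libraries and scaling. Slc10a1 was closest to Bbox1 (0.998), a gene of carnitine synthesis, and Abcb11 to Parva (0.995). Ppa2, a mitochondrial pyrophosphatase, was the second closest to both (0.997 with Slc10a1 and 0.995 with Abcb11). Abcc3 was closest to Cyp2c50 (0.989) and Cyp2c67 (0.988), both P450 genes. Slc22a7 was closest to Dctn3 (0.991), Abcb4 to Psma1 (0.982), Slco1b2 to Bnip3 (0.989), Slco1a4 to Atg3 (0.985), Abcc4 to Cct4 (0.985) and Abcc2 to Zmynd11 (0.967). Among the transporters, Slc22a7 and Abcb4 followed each other with r = 0.94.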
